A study of Homo sapiens with 20 samples.

Results

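The UGT2B genes described here were the 6 rows named UGT2B7, UGT2B10, UGT2B11, UGT2B15, UGT2B17 and UGT2B28 in both count tables, of 57773 gene rows in each. They were chosen by gene symbol. RNA-seq was performed on LNCaP cells, an androgen-responsive human prostate adenocarcinoma line, to compare silencing of the histone methyltransferase EHMT1 with induced expression of EHMT1 and of its lysine mutants. In the silencing experiment, LNCaP cells were transfected at 20 nM with pooled siRNAs, either directed at EHMT1 (siEHMT1) or without a target (siNTC), and collected after 2 days, with 2 samples in each group. In the induction experiment, LNCaP-tet-EHMT1 cells carried a doxycycline-inducible EHMT1 construct, delivered by lentivirus and selected as a stable line. There were 4 such lines, EHMT1-WT, EHMT1-K450R, EHMT1-K451R and EHMT1-K450RK451R, named by the wild-type form and by the lysines changed to arginine. Each line was left untreated (Veh) or given doxycycline (Dox) at 0.25 µg/mL over 2 days. All cells grew in medium with fetal bovine serum, so no group was deprived of androgen by its label. Each mutant form was present in 1 stable line, so the form and the line that carried it cannot be told apart.

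UGT2B enzymes sit in the membrane of the endoplasmic reticulum and transfer glucuronic acid from UDP-glucuronic acid to small lipophilic molecules, which can then be exported. In the prostate, UGT2B15 and UGT2B17 are the main enzymes that conjugate dihydrotestosterone and its metabolites, and androgens are known to lower both transcripts in LNCaP cells. UGT2B28 and UGT2B11 are also transcribed in steroid target tissues, while UGT2B7 and UGT2B10 are best known from liver, where UGT2B7 conjugates opioids, steroids and other drugs and UGT2B10 conjugates amines such as nicotine.

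The members lie in 1 cluster on chromosome 4 and are near copies of one another. On GRCh37, UGT2B17 spans chr4:69402891-69442131 and UGT2B15 spans chr4:69512315-69536370, both on the minus strand. UGT2B10 follows at chr4:69681712-69697741 and UGT2B7 at chr4:69917081-69978705, both on the plus strand. UGT2B11 lies at chr4:70065669-70080466 on the minus strand and UGT2B28 at chr4:70146193-70160768 on the plus strand. The coding sequences fell into a pair of groups by identity. UGT2B15 and UGT2B17 had 96.5% of their aligned coding bases in common. UGT2B11 and UGT2B28 had 97% in common, UGT2B10 and UGT2B11 95%, and UGT2B7 and UGT2B10 92.9%. Between the groups the identity was 83.9% to 85.4%.

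**Figure D1:**
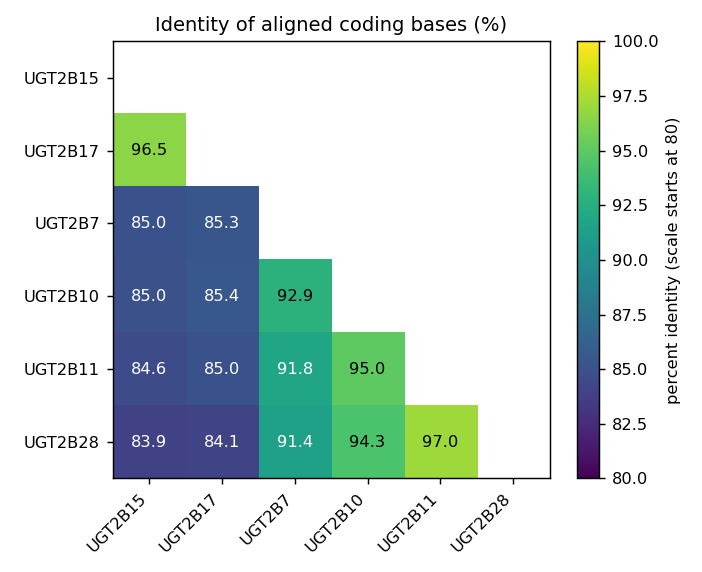
Identity of the coding sequences of the 6 members, in percent of aligned bases, with a colour scale that starts at 80%. UGT2B15 and UGT2B17 form one block at 96.5%, and UGT2B7, UGT2B10, UGT2B11 and UGT2B28 form another, up to 97%.

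Sequences of 51 bases, the length of 1 read, are shown to make this likeness visible. The first window is the stretch of aligned coding sequence in which the 6 members were most alike. It lies in exon 5 of the canonical transcript, or in exon 6 in UGT2B17. Capitals mark the 3 of 51 positions at which the members were not all the same, and 4 distinct sequences were present.
UGT2B7 (chr4:69973837-69973887, plus strand): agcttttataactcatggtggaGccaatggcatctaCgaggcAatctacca
UGT2B10 (chr4:69693063-69693113, plus strand): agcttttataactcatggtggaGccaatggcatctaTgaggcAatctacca
UGT2B11 (chr4:70070301-70070351, minus strand): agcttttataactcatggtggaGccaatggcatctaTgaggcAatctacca
UGT2B28 (chr4:70156326-70156376, plus strand): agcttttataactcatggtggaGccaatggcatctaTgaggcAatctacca
UGT2B15 (chr4:69519908-69519958, minus strand): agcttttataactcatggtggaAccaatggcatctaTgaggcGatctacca
UGT2B17 (chr4:69416548-69416598, minus strand): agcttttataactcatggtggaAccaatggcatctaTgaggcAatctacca

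A read from this window could not separate UGT2B10, UGT2B11 and UGT2B28, whose sequences were the same. The second window, in the first coding exon, is the one in which the members were least alike. Here 27 of 51 positions were in capitals, by the same rule, and all 6 sequences were distinct.
UGT2B7 (chr4:69962570-69962620, plus strand): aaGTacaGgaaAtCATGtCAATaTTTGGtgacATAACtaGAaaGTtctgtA
UGT2B10 (chr4:69682066-69682116, plus strand): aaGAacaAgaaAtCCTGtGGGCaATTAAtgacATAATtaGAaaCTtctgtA
UGT2B11 (chr4:70080059-70080109, minus strand): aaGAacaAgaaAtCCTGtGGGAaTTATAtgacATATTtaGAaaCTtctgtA
UGT2B28 (chr4:70146550-70146600, plus strand): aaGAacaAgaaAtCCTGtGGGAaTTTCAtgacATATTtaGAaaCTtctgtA
UGT2B15 (chr4:69535952-69536002, minus strand): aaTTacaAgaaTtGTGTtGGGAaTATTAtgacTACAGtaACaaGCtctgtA
UGT2B17 (chr4:69433818-69433868, minus strand): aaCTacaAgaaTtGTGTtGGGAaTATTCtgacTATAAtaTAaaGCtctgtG

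Over whole canonical transcripts, windows of 51 bases that occurred at most once in the genome (a window over an exon junction does not occur there) and in no other gene's transcript made up 93.6% of UGT2B7 and 50.5% of UGT2B11. The share was 76.4% in UGT2B17, 75.5% in UGT2B10, 71.9% in UGT2B15 and 65.8% in UGT2B28. UGT2B15 had 549 windows in common with UGT2B17, which was 26.3% of its own and 22.6% of those of UGT2B17. UGT2B11 had 352 windows in common with UGT2B28, 17.1% of its own and 19.5% of those of UGT2B28. UGT2B15 shared no window with UGT2B10, UGT2B11 or UGT2B28. How the counting treated reads that fit several genes was not given in the sources used here, so the split of counts within each group of near copies is uncertain.

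The sequences upstream of 4 members are shown to compare the likeness of promoters with that of coding sequence. RefSeq promoters on GRCh38.p14 matched UGT2B7, UGT2B10, UGT2B11 and UGT2B15, 4 of the 6 members. UGT2B17 and UGT2B28 were not matched. The 150 bases before each annotated start are printed with capitals at the bases that were not the same as in UGT2B10 after alignment.
UGT2B10 (chr4:68815844-68815993, plus strand): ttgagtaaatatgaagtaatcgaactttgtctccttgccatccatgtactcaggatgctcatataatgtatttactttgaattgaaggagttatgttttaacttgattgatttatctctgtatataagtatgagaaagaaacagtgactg
UGT2B11 (chr4:69214749-69214898, minus strand): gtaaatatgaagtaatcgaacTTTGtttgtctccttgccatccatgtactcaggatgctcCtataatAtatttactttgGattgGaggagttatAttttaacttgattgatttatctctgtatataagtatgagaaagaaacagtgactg
UGT2B15 (chr4:68670653-68670802, minus strand): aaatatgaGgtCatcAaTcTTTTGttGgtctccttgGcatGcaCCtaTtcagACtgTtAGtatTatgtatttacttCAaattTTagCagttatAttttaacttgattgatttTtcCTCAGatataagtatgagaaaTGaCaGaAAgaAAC
UGT2B7 (chr4:69096324-69096473, plus strand): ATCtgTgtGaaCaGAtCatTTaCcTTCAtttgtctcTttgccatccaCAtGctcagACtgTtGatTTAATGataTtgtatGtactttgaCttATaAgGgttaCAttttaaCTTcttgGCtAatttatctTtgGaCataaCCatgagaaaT

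The upstream sequences of UGT2B10 and UGT2B11 were 96.6% identical over their aligned bases, with 9 capitals in UGT2B11. That of UGT2B15 was 75% identical to each of them, and that of UGT2B7 71.4% to 73.3% identical to the other 3. Motifs were searched on both strands as exact letters. The androgen response hexamer AGAACA, present in 7.37% of 35116 promoters of the same length, was in none of the 4 windows. The HNF1 hexamer GTTAAT, present in 3.52% of promoters, and the TATA box letters TATAAA, in 6.71%, were also in none. The nuclear receptor hexamer AGGTCA, in 7.63% of promoters, occurred 1 time, in UGT2B15. A motif that was not found says only that these letters were not in these windows.

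Total counts were 5593400 to 12438006 in the siRNA samples and 4168199 to 6272708 in the 16 stable-line columns. The columns numbered 1 and 2 of a stable-line condition differed by no more than counting noise (chi-square over its degrees of freedom 0.995 to 1.02), so they were summed and counted as 1 sample, of 8436791 to 12407739 counts. In the siRNA samples 2 ribosomal-RNA-like pseudogenes took 0.820% and 10.0% of the counts in siNTC replicates 1 and 2, and 1.01% and 0.0531% in siEHMT1 replicates 1 and 2; their part in the results was not tested beyond leaving both rows out. Levels are given as TMM-scaled CPM, which are counts divided by a normalized library size, and 3 counts, the limit set by a count of 0, corresponded to 0.232 to 0.592 CPM. This limit and the intervals of shares and of ratios within a line cover counting error only, whereas intervals from edgeR include the spread between samples. All 10 LNCaP markers were detected, with a summed level of 6292 to 6598 CPM in the siRNA samples and 11770 to 13020 CPM in the stable lines. The basal markers TP63 and KRT5, the leukocyte marker PTPRC, the fibroblast marker COL1A2 and the intestinal markers FABP1 and CDX1 were at 0 in every library. The fibroblast marker COL1A1, named after its values were seen, was at 15.3 to 17.4 CPM in the siRNA samples and 30.5 to 40.7 CPM in the stable lines, and the 4 basal markers summed to at most 1.52 CPM. The 5 intestinal markers summed to 0.0942 to 0.394 CPM in siNTC and 0.521 to 1.04 CPM in siEHMT1. The 5 liver markers summed to 1.70 to 3.55 CPM in siNTC and 3.96 to 5.02 CPM in siEHMT1, mainly through TTR, with 9 and 6 counts against 20 and 50, and the part of these lists in the members' values was not tested. In bulk samples, fewer cells of a type and less RNA per cell cannot be told apart.

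EHMT1 silencing was present in both siEHMT1 samples. EHMT1 had 87.6 and 83.4 CPM in siNTC and 29.2 and 30.7 CPM in siEHMT1, a log2 change of -1.51 ± 0.11 (SE, n = 2 against 2, adjusted p = 1.51e-07 by edgeR's quasi-likelihood test). The comparison asks which UGT2B transcripts depend on EHMT1 in these cells.

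After EHMT1 silencing UGT2B28 rose, and UGT2B15 and UGT2B17, the main androgen-conjugating members, had log2 changes of 0.08 and 0.05 that did not pass the test. UGT2B11, UGT2B10 and, by a small distance, UGT2B15 were higher in both siEHMT1 samples than in both siNTC samples, as were 19.9% of all genes tested, but did not pass the adjusted threshold. Among the 14532 genes tested, 0.131% had an adjusted p under 0.05 and 9.58% an unadjusted p under 0.05. Of the 6 members 5 passed the filter on low counts, and of these 1 passed the adjusted threshold and 3 the unadjusted one, each of them higher in siEHMT1. All genes that were higher and passed made up 0.0619% and 4.51%, and those that were lower 0.0688% and 5.07%. The median log2 change was 0.44 over the 5 members and -0.00 over all genes tested, and the members' changes ranged from 0.05 to 1.11. The p-values measure the spread between these samples, which the labels do not tie to separate cultures.

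UGT2B28, an enzyme reported to act on androgens and bile acids, had 121 and 56 counts in siNTC and 223 and 316 in siEHMT1. Its levels were 11.4 and 11.0 CPM in siNTC and 23.2 and 25.2 CPM in siEHMT1. Both silenced samples were above both controls, as for 19.9% of all genes tested, here by a factor much larger than the spread within either group. The log2 change was 1.11 ± 0.16 (SE, n = 2 against 2), a 2.15-fold rise with an adjusted p of 0.00279 by edgeR. Leaving out each sample in turn gave log2 changes of 1.05 to 1.16 with adjusted p-values of 0.000354 to 0.00438, and the value without siNTC replicate 2, the library with 10.0% of pseudogene counts, was 1.08. DESeq2 gave UGT2B28 a log2 change of 1.11 and an unadjusted p of 2.59e-06 but no adjusted p. The default filter of DESeq2 on mean counts left this gene out of the adjustment.

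UGT2B11, the nearest relative of UGT2B28, had 691 and 389 counts in siNTC and 935 and 1193 in siEHMT1. The levels were 65.1 and 76.7 CPM in siNTC and 97.4 and 95 CPM in siEHMT1. The groups did not overlap, which was also the case, in this direction, for 19.9% of all genes tested, with 19.8% in the other direction. The log2 change was 0.44 ± 0.10 (SE, n = 2 against 2) with an unadjusted p of 0.00037 and an adjusted p of 0.101 by edgeR. The adjusted p by edgeR was 0.0139 without siNTC replicate 2, 0.0398 without siEHMT1 replicate 2, 0.337 without siNTC replicate 1, 0.164 without siEHMT1 replicate 1 and 0.00836 with the replicate number as a block, so the call depended on these choices.

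UGT2B10 had 68 and 49 counts in siNTC and 126 and 169 in siEHMT1. Its levels were 6.41 and 9.66 CPM in siNTC and 13.1 and 13.5 CPM in siEHMT1. The siNTC samples stood farther apart than the siEHMT1 samples, and the groups did not overlap, as in this direction for 19.9% of all genes tested. Its log2 change was 0.76 ± 0.22 (SE, n = 2 against 2), with an unadjusted p of 0.0024 and an adjusted p of 0.215 by edgeR. Without siNTC replicate 2 it was 1.05 with an adjusted p of 0.0446 by edgeR, and without siNTC replicate 1 it was 0.46 with an unadjusted p of 0.1 and an adjusted p of 0.66, so the value depended on the control samples.

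UGT2B15 had 933 and 470 counts in siNTC and 927 and 1177 in siEHMT1. Its levels were 87.9 and 92.7 CPM in siNTC and 96.5 and 93.8 CPM in siEHMT1. Both siEHMT1 samples were above both siNTC samples here too, but the distance between the group means was about that between the siNTC samples. Silencing gave a log2 change of 0.08, with a 95% interval of -0.12 to 0.27 and an adjusted p of 0.852 by edgeR.

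UGT2B17 had 780 and 402 counts in siNTC and 733 and 1020 in siEHMT1. The levels were 73.5 and 79.3 CPM in siNTC and 76.3 and 81.3 CPM in siEHMT1, and the groups overlapped. Silencing gave a log2 change of 0.05, with a 95% interval of -0.16 to 0.25 and an adjusted p of 0.928 by edgeR. For UGT2B15 and UGT2B17 the intervals ended below the log2 change of 0.44 fitted for UGT2B11, but overlapped its 95% interval of 0.23 to 0.66. The direct difference between members' changes was not tested.

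UGT2B7 did not pass the filter. It had 8 and 2 counts in siNTC and 6 and 7 in siEHMT1, and a difference was not detectable at this depth. The groups overlapped.

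**Figure D2:**
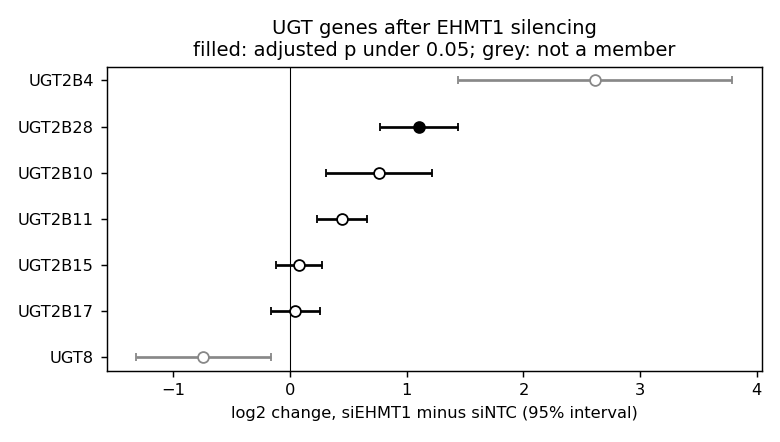
Log2 change of UGT genes in siEHMT1 minus siNTC with 95% intervals from edgeR, members in black and other UGT genes in grey, filled where the adjusted p was under 0.05. The change of UGT2B28, 1.11, is the only filled point, and the intervals of UGT2B15 and UGT2B17 include 0.

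The same counts were also expressed as the make-up of the family's reads, which does not depend on library size. UGT2B28 made up 4.65% (95% Wilson interval 3.91 to 5.53) and 4.09% (3.17 to 5.28) of the reads on the 6 rows in siNTC, and 7.56% (6.66 to 8.57) and 8.14% (7.32 to 9.04) in siEHMT1. UGT2B11 made up 26.6% and 28.4% in siNTC and 31.7% and 30.7% in siEHMT1. The Wilson intervals of siNTC replicate 2 (26.1 to 30.9) and siEHMT1 replicate 2 (29.3 to 32.2) overlapped. UGT2B17 went the other way as a share, with 30.0% and 29.4% in siNTC and 24.9% and 26.3% in siEHMT1, although its level did not move beyond the spread. A share falls where other members gain, so these values describe the mix of transcripts and not the amount of UGT2B17.

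Levels were also summed over near copies, so that the split of reads among the summed members does not enter. Reads shared with other sequences, or not counted because they fit several genes, are not recovered in this way. The summed level of UGT2B15 and UGT2B17 was 161 and 172 CPM in siNTC and 173 and 175 CPM in siEHMT1, a ratio of means of 1.04. The summed level of UGT2B10, UGT2B11 and UGT2B28 was 82.9 and 97.4 CPM in siNTC and 134 CPM in both siEHMT1 samples, a ratio of 1.48. For all 6 rows the level was 257 ± 17.4 CPM in siNTC and 308 ± 1.41 CPM in siEHMT1 (SD, n = 2), a ratio of 1.2. No test was run on the sums.

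**Figure D3:**
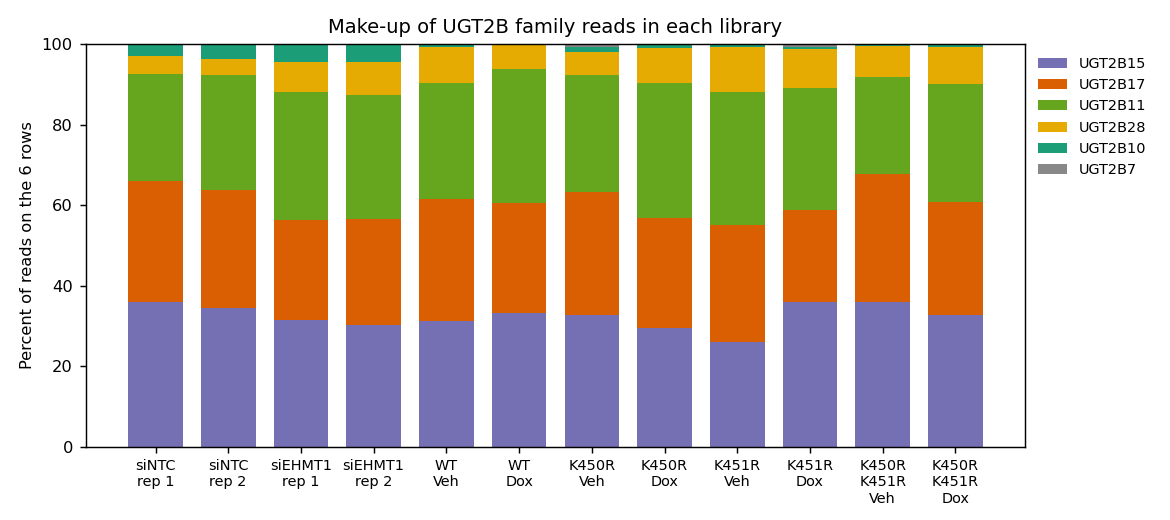
Percent of the reads on the 6 UGT2B rows that each member took in the 4 siRNA samples and the 8 stable-line conditions, with the columns of a stable-line condition summed. UGT2B28 widens from 4.09% and 4.65% in siNTC to 7.56% and 8.14% in siEHMT1, while UGT2B15, UGT2B17 and UGT2B11 hold most of the reads in every bar.

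The wider UGT family and the rest of the androgen pathway held few tested genes. Genes without an adjusted p under 0.05 that are named below for these lists were singled out after their values were seen. Of 22 other UGT rows, pseudogenes included, 2 passed the filter and 0 passed the adjusted threshold by edgeR, while both had an unadjusted p under 0.05. UGT2B4, a liver bile acid enzyme whose coding sequence was 89.2% to 90.5% identical to UGT2B7, UGT2B10, UGT2B11 and UGT2B28, had 4 and 2 counts in siNTC and 26 and 27 in siEHMT1, with an adjusted p of 0.0721. UGT8, which makes galactosylceramide, was at 6.16 ± 0.35 CPM in siNTC and 3.69 ± 0.07 CPM in siEHMT1 (SD, n = 2), with an adjusted p of 0.369 by edgeR. The UGT1A and UGT2A genes did not pass the filter.

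For turnover of UDP-glucuronic acid and glucuronides, 5 of 6 genes were tested and 0 passed the adjusted threshold by edgeR, and 1 had an unadjusted p under 0.05. That gene was UGP2, which makes UDP-glucose, with a log2 change of -0.33. Among other listed steroid-converting enzymes, not all of which inactivate androgens, 10 of 23 genes were tested, 0 passed and 2 had an unadjusted p under 0.05. CYP3A5, a steroid hydroxylase, had a log2 change of 1.35 with an adjusted p of 0.0721, and RDH16, a dehydrogenase of retinoids and steroids, one of 1.44 with an adjusted p of 0.307 by edgeR. For androgen synthesis 5 of 13 genes were tested, with 0 at either threshold. Of 7 exporters of conjugates 2 were tested, and ABCC4 alone had an unadjusted p under 0.05, with a log2 change of -0.21.

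Of 18 factors reported to act on UGT2B genes 9 were tested and 0 passed at either threshold by edgeR. Of 10 androgen-induced genes, 0 passed the adjusted threshold and 2 had an unadjusted p under 0.05, TMPRSS2 with a log2 change of 0.27 and ABCC4, named above, with one in the other direction. Of 18 listed genes next to the UGT2B genes on chromosome 4, 3 were tested. The protease gene TMPRSS11E had a log2 change of 0.72 with an adjusted p of 0.25, and the other two had no unadjusted p under 0.05.

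In the stable lines EHMT1 was at 71.6 to 88.6 CPM in Veh and 661 to 840 CPM in Dox, higher in 4 of 4 lines, with a log2 change of 3.23. The comparison over lines asks whether UGT2B transcripts respond to induction of EHMT1 forms, with the 4 lines as replicates and the line as a covariate. It cannot separate an effect of the EHMT1 forms from an effect of doxycycline itself, as no line without a construct was analysed here. No member passed the adjusted threshold by edgeR, against 2.1% of 14105 genes tested, 0.603% higher and 1.5% lower with Dox. Of the 4 members tested, 2 had an unadjusted p under 0.05, both higher in Dox, against 14.4% of all genes in either direction, 6.87% higher and 7.55% lower. By limma-voom 0 of 4 members passed the adjusted threshold and 2 the unadjusted one, and by DESeq2 0 of 3 members with an adjusted p passed.

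UGT2B11 was at 17.9 CPM in Veh against 18.3 in Dox for the WT line, 20.6 against 28.7 for K450R, 22 against 25.7 for K451R and 17.1 against 25.7 for K450RK451R. Dox was above Veh in 4 of 4 lines, as for 10.7% of all genes tested (10.1% were below Veh in all 4), and the WT line changed least. The log2 change was 0.34 ± 0.11 (SE, n = 4 lines), with an unadjusted p of 0.0048 and an adjusted p of 0.113 by edgeR. Without the WT line it was 0.43 with an adjusted p of 0.0361, so the call depended on that line.

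UGT2B15 was at 19.5 CPM in Veh against 18.3 in Dox for the WT line, 23 against 25.2 for K450R, 17.2 against 30.6 for K451R and 25.6 against 28.7 for K450RK451R. Dox was higher in 3 of 4 lines, and K451R stood apart from the others. The log2 change was 0.26 ± 0.12 (SE, n = 4 lines), with an unadjusted p of 0.0349 and an adjusted p of 0.295 by edgeR. Without K451R it was 0.08.

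UGT2B17 was at 18.9 CPM in Veh against 15.2 in Dox for the WT line, 21.7 against 23.4 for K450R, 19.4 against 19.3 for K451R and 22.7 against 24.5 for K450RK451R. The lines went in both directions, and the log2 change was -0.01 with a 95% interval of -0.24 to 0.21 and an adjusted p of 0.981 by edgeR. The sign changed to a log2 change of 0.075 without the WT line.

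UGT2B28 was at 5.64 CPM in Veh against 3.37 in Dox for the WT line, 4.06 against 7.45 for K450R, 7.52 against 8.36 for K451R and 5.57 against 8.11 for K450RK451R. It was lower with Dox in the WT line and higher in the other 3 lines. The log2 change over lines was 0.24, with a 95% interval of -0.20 to 0.68 and an adjusted p of 0.659 by edgeR. Without the WT line it was 0.48, with an adjusted p of 0.253.

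UGT2B10 and UGT2B7 did not pass the filter in the stable lines. UGT2B10 had 4 counts in Veh against 0 in Dox for the WT line, 7 against 7 for K450R, 4 against 4 for K451R and 3 against 8 for K450RK451R. UGT2B7 had 1 against 1, 4 against 0, 0 against 8 and 0 against 0 counts in the same order of lines, and the 8 counts in K451R Dox came as 4 in each of its columns. The counting interval of the UGT2B7 ratio in K451R began at 1.14 and had no upper end, since Veh was at 0, and the intervals of both genes in the other lines included 1 or gave no ratio.

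Within each line there was 1 library per condition, so the Dox over Veh ratios carry an exact binomial (Clopper-Pearson) interval of counting error and no test of the condition. For UGT2B11 the ratio was 1.40 (95% interval 1.15 to 1.71) in K450R, 1.51 (1.25 to 1.82) in K450RK451R, 1.17 (0.971 to 1.41) in K451R and 1.02 (0.828 to 1.26) in WT. For UGT2B15 it was 1.78 (1.46 to 2.17) in K451R and 0.942 to 1.12 in the other 3 lines, with intervals that included 1. For UGT2B28 it was 0.598 (0.375 to 0.933) in WT, 1.84 (1.2 to 2.87) in K450R, 1.46 (1.04 to 2.06) in K450RK451R and 1.11 (0.804 to 1.55) in K451R. For UGT2B17 all 4 intervals included 1. With plain library size the intervals of UGT2B11 in K451R (1.28, 1.06 to 1.54) and of UGT2B15 in K450RK451R (1.23, 1.05 to 1.45) were above 1. The shares of all genes tested with an interval wholly above 1 were 11.5% in WT, 12.8% in K450R, 12.6% in K451R and 16.8% in K450RK451R, and those with an interval wholly below 1 were 11.3%, 13.1%, 14.6% and 17.8% in the same order.

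**Figure D4:**
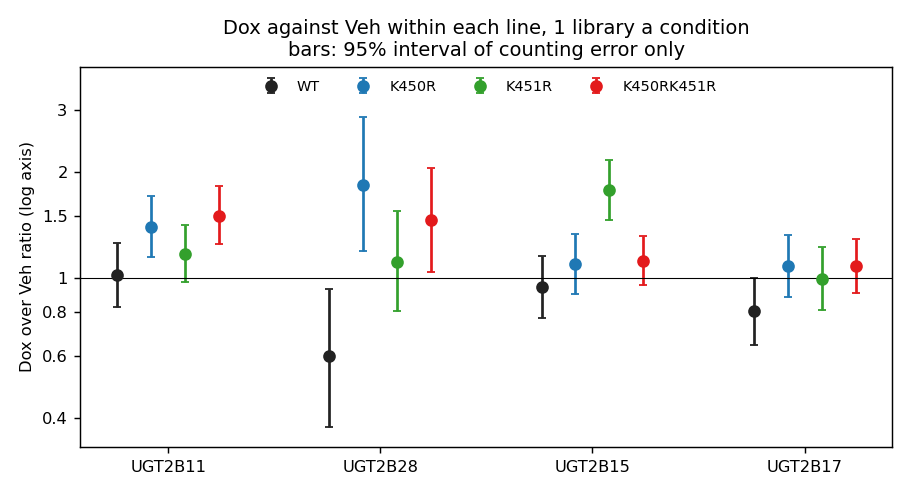
Ratio of the Dox to the Veh level of 4 members in each stable line on a log axis, with 95% counting intervals, 1 library a condition. UGT2B28 lies at 0.598 in WT and 1.84 in K450R on either side of 1, UGT2B15 stands at 1.78 in K451R, and UGT2B17 stays near 1.

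Reads of UGT2B15 as a share of the family were 25.9% (95% Wilson interval 22.4 to 29.7) in K451R Veh and 36.0% (33.2 to 39.0) in K451R Dox. The summed level of UGT2B15 and UGT2B17 was 36.6 CPM in K451R Veh and 49.9 CPM in K451R Dox. UGT2B17, its nearest copy, was at 19.4 and 19.3 CPM in these libraries.

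Among the pathway lists over the 4 lines, of the factors reported to act on UGT2B genes 2 of 9 tested rose with Dox, among them FOXA1, a pioneer factor of luminal cells, with a log2 change of 0.36 and an adjusted p of 0.000418 by edgeR. Of the 10 androgen-induced genes 4 rose and none fell at the adjusted threshold, and KLK2 had a log2 change of -0.11 with an adjusted p of 0.308. Among those that rose were the transmembrane gene PMEPA1 with a log2 change of 0.66, the solute carrier SLC45A3 with 0.23 and the protease TMPRSS2 with 0.22. For turnover of UDP-glucuronic acid and glucuronides 0 of 5 tested genes had an adjusted or an unadjusted p under 0.05. The same held for 0 of 6 genes of androgen synthesis and 0 of 2 exporters. Among the other listed steroid-converting enzymes 0 of 10 passed the adjusted threshold by edgeR, and 2 were lower with an unadjusted p under 0.05. Of the genes next to the UGT2B genes 0 of 3 passed either threshold, and the only other UGT gene tested, UGT8, had a log2 change of 0.20 with an adjusted p of 0.757. In total 5 of 10 LNCaP markers rose and 0 fell at the adjusted threshold, FOXA1 and TMPRSS2 among those that rose. Of all genes tested 0.603% were higher and 1.5% lower at that threshold. A further 3 markers were lower with an unadjusted p under 0.05 by edgeR. They were KRT8 with a log2 change of -0.20, KRT18 with -0.16 and KLK2, named above. The markers thus moved in both directions, and their part in the members' values was not tested.

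Among the 4 lines, with treatment as a covariate, 0 of 4 members passed the adjusted threshold by edgeR and 2 the unadjusted one, against 3.05% and 15.2% of 14105 genes. Over the lines UGT2B17 spanned a log2 range of 0.46 with an adjusted p of 0.232, UGT2B15 one of 0.50 with an adjusted p of 0.302, UGT2B11 one of 0.42 with an adjusted p of 0.351 and UGT2B28 one of 0.74 with an adjusted p of 0.447. With Veh and Dox fitted together the WT line was the lowest for each of these 4 members, as it was in the Dox libraries. In the Veh libraries it was the lowest for UGT2B17 only. There K451R was lower for UGT2B15, at 17.2 CPM against 19.5 in WT. K450RK451R was lower for UGT2B11, at 17.1 against 17.9, and K450R for UGT2B28, at 4.06 against 5.64. In 6 pairs of lines and 4 members, the lowest adjusted p was 0.0952, for UGT2B15 in K450RK451R minus WT, with a log2 difference of 0.50 (95% interval 0.16 to 0.84) and 0 of these 24 tests had an adjusted p under 0.05 by edgeR, while the genes called made up 3.62% in that pair. The genes called made up 0.291% in K450R minus WT, 2.34% in K451R minus WT, 0.397% in K451R minus K450R, 0.454% in K450RK451R minus K450R and 0.326% in K450RK451R minus K451R. For UGT2B17, K450RK451R minus WT gave 0.46 (0.15 to 0.78) with an adjusted p of 0.0992. By limma-voom 0 members passed the adjusted threshold and by DESeq2 0 passed either. Without the WT line the largest spread among the 4 members was 0.44, in UGT2B28.

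Per kilobase of union exon length, which allows comparison between genes, UGT2B15 was the highest member in siNTC at 42.3 ± 1.57 CPM per kb (SD, n = 2). UGT2B11 followed at 30.1 ± 3.47 and UGT2B17 at 29.7 ± 1.58, and these neighbours did not differ beyond their spread. UGT2B28 was at 6.04 ± 0.138, UGT2B10 at 2.91 ± 0.834 and UGT2B7 at 0.254 ± 0.112 CPM per kb. In siEHMT1 the order was unchanged, but UGT2B11 at 40.8 ± 0.703 stood clear of UGT2B17 at 30.6 ± 1.35 and below UGT2B15 at 44.6 ± 0.923, with UGT2B28 at 13 ± 0.742, UGT2B10 at 4.82 ± 0.0872 and UGT2B7 at 0.262 ± 0.021 CPM per kb. Over the 8 stable-line conditions UGT2B15 ranged from 8.07 to 14.3 CPM per kb, with a median of 11.3. The range of UGT2B11 was 7.26 to 12.2 with a median of 9.02, and that of UGT2B17 was 5.90 to 9.53 with a median of 7.98, so the ranges of these 3 overlapped. UGT2B28 ranged from 1.82 to 4.5, UGT2B10 from 0 to 0.312 and UGT2B7 from 0 to 0.287 CPM per kb.

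The order at the top depended on how length was taken. With only windows unique to a gene as length, UGT2B11 was the highest member in siNTC at 68.4 CPM per kb, above UGT2B15 at 60.2 and UGT2B17 at 41.2. UGT2B28 was then at 9.44 and UGT2B10 at 3.93 CPM per kb, and the lower part of the order stayed the same. The counts were not limited to these windows. These values therefore hold only if reads that fit several genes were left uncounted, which is not known.

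**Figure D5:**
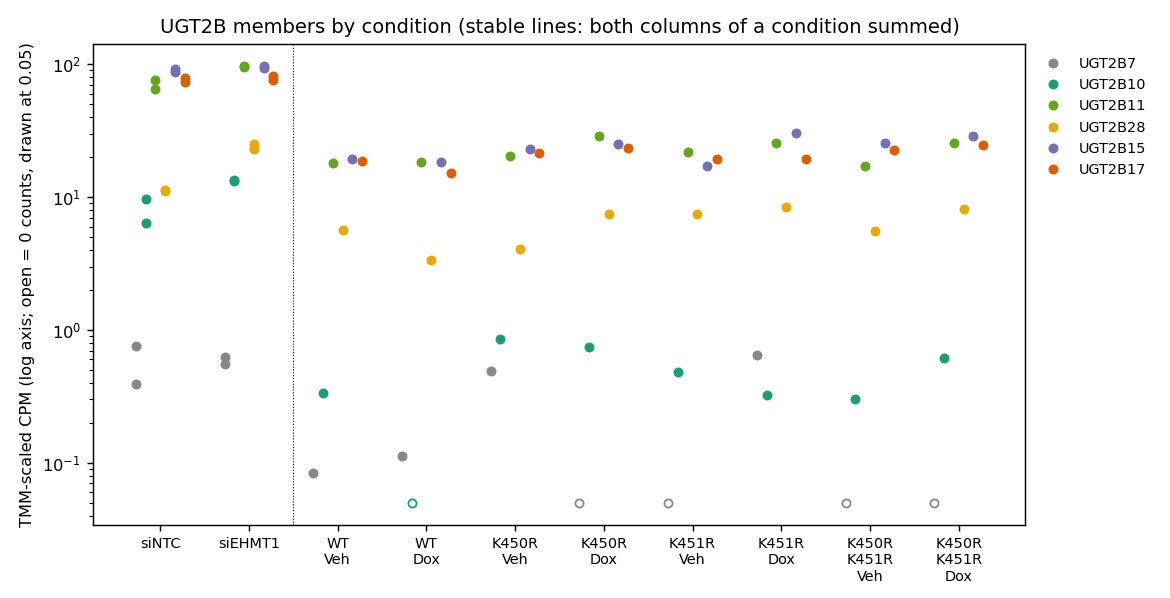
Level of each member in TMM-scaled CPM, on a log axis, in the 4 siRNA samples and in the 8 stable-line conditions, with open points for 0 counts drawn at 0.05. The siRNA samples lie left of the dotted line and were normalized apart; UGT2B15, UGT2B17 and UGT2B11 lie at 65.1 to 97.4 CPM there and at 15.2 to 30.6 CPM in the stable lines.

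UGT2B10, UGT2B11, UGT2B15, UGT2B17 and UGT2B28 were lower in every stable-line condition than in every siRNA sample. The share of all genes that separated in this way was not computed, so this is not read as a trait of the family. UGT2B7, at 0 to 0.65 CPM in the stable lines, overlapped with its siRNA levels. The tables were normalized apart, and the experiments differ in the cells and the transfection. By the paper's methods the stable lines were also selected with puromycin and kept in tetracycline-free serum. The values of the 2 experiments are therefore set side by side with no test. The siNTC mean was 3.70 times the mean of the 4 Veh conditions for UGT2B17, 4.24 times for UGT2B15, 3.66 times for UGT2B11 and 1.97 times for UGT2B28. Among 13617 genes tested in both tables the median log2 ratio was 0.10. Of these genes 13.2% were more than 2-fold higher in siNTC and 9.13% more than 2-fold lower. A ratio above that of UGT2B15 was found in 1.54% of genes, and above that of UGT2B28 in 13.6%. UGT2B10 had 8.04 ± 2.30 CPM in siNTC (SD, n = 2) and 0.497 CPM in Veh on average, where its counts were 3 to 7 a condition. For comparison, the androgen-induced gene KLK3 was 0.391 times as high in siNTC as in Veh.

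Over the 8 stable-line conditions, levels of members were compared by the correlation of log2(CPM + 0.5), which describes these conditions and shares the depth and line of each library. UGT2B11 and UGT2B28 were the most alike pair, with a Pearson r of 0.71, and UGT2B17 and UGT2B15 had an r of 0.63. Both pairs are also the nearest copies in coding sequence, and the part of shared reads in these values was not tested. The lowest of the 6 pairs, UGT2B17 and UGT2B11, had an r of 0.47. Among 10866 genes with a mean of at least 50 counts, those most like UGT2B17 were ZMAT3 (r = 0.95), PDCD5 (0.94) and ZNF207 (0.93). Those most like UGT2B15 were LIMK1 (r = 0.99), UBE2D4 (0.97) and NXN (0.96), and those most like UGT2B11 were TM2D1 (0.97), F2RL1 (0.97) and DDX20 (0.96). For UGT2B28 they were CETN3, OTUD4 (both 0.97) and SNHG14 (0.96). These genes were picked as the highest of all, and nothing about shared function or control is drawn from them.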

How the data were processed

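RNA was measured in 20 samples of LNCaP cells, 4 from the siRNA experiment and 16 from the stable lines. The authors deposited 2 tables of raw counts, whole numbers of reads per Ensembl gene, without normalization. The submitters' processing notes name FastQC 0.11.9, STAR 2.7.2, featureCounts 1.6.4 and the build hg19/GRCh37. The kit was a stranded total RNA kit. The annotation release, the strand setting and the treatment of multiply mapped reads are not given in the sources used here, so overlapping genes and near copies could share reads. Columns were assigned to samples through their names.

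Counts were normalized by TMM, filtered with filterByExpr and tested by the quasi-likelihood method of edgeR 4.0.16 in R 4.3.3, with Benjamini-Hochberg adjustment over all genes tested and a threshold of 0.05. The siRNA samples were fitted alone. The columns of each stable-line condition were summed when their chi-square per degree of freedom over genes with at least 20 counts was under 1.2, which held in all 8 conditions, and were fitted with line and treatment. Alternatives were DESeq2 1.42.0 (likelihood ratio test among lines), limma-voom (limma 3.58.1), other normalizations and filters, the legacy quasi-likelihood version, a replicate block, the 16 columns kept apart and leaving out each sample or line. The procedures were tested on simulated data. Gene models, coding sequence and uniqueness of 51-base windows came from GENCODE release 44 lifted to GRCh37, and promoters from RefSeq on GRCh38.p14.

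The members and gene lists were chosen with earlier results of these data known. Genes named were all members, EHMT1, listed pathway genes with an adjusted p under 0.05, and for each member with a mean of at least 50 counts the 3 genes most correlated with it. Other names were chosen after their values were seen. Some listed genes are not reported here by name. Depth ranged over 5593400 to 12438006 counts in the siRNA experiment and over 4168199 to 6272708 counts in the 16 other columns.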

Additional observations from a re-analysis of the deposited data

Results flagged for a closer look

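UGT2B28 was flagged because its Dox over Veh ratio lay on opposite sides of 1 in different stable lines, each with a 95% counting interval that excluded 1. The ratio was 0.598 in WT, from 67 counts in Veh and 30 in Dox. It was 1.84 in K450R, from 33 and 70 counts, and 1.46 in K450RK451R, from 55 and 105 counts. The columns of a condition count as 1 sample, so their likeness adds no replication. By column, Veh against Dox, the counts were 34 and 33 against 15 and 15 in WT. They were 18 and 15 against 35 and 35 in K450R, and 23 and 32 against 57 and 48 in K450RK451R. The difference between lines was not tested, since there was 1 library per condition after summing. Intervals wholly below 1 were found for 11.3% of genes in WT, and intervals wholly above 1 for 12.8% in K450R and 16.8% in K450RK451R.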

How the results depend on the processing

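In the siRNA comparison UGT2B28 stayed past the threshold in each alternative that gave it an adjusted p (12 alternatives, log2 change 1.05 to 1.16, adjusted p 1.7e-05 to 0.0165); DESeq2 gave a log2 change of 1.11 and an unadjusted p of 2.59e-06, with no adjusted p. The number of genes called was 19 and became 12 by DESeq2, 12 without a filter, 127 with the replicate block and 38 to 111 without 1 sample. With the replicate block UGT2B11 passed (log2 change 0.45, adjusted p 0.00836 by edgeR), and the block changed the call of no other member. The deviations of same-numbered samples had a Pearson r of -0.0023 and a Spearman rho of 0.03 over genes. A correlation over all genes cannot tell whether same-numbered samples shared a batch that moved some genes, and the labels give only the number. Without 1 sample UGT2B11 had log2 changes of 0.33 to 0.56, UGT2B10 0.46 to 1.05 and UGT2B17 -0.0089 to 0.10, with -0.0089 without siNTC replicate 1. The Dox count of 296 genes became 140 by DESeq2, 2005 with the 16 columns kept apart, which counts columns that differ by counting noise as replicates, and 114 to 501 without 1 line. UGT2B11 then passed with the columns kept apart (0.34) and ranged over 0.25 to 0.43 without 1 line; UGT2B17 changed sign to 0.0029 by upper-quartile normalization and ranged over -0.065 to 0.075, with 0.075 without WT. The count of genes that differed among lines, 430, became 239 by DESeq2, 3449 with columns kept apart and 251 to 421 without 1 line; with columns kept apart UGT2B17 (0.46), UGT2B15 (0.49) and UGT2B11 (0.42) passed. Ratios within lines moved by less than their counting intervals in 48 of 48 alternatives, but with plain library size the intervals of UGT2B11 in K451R (ratio 1.28) and of UGT2B15 in K450RK451R (1.23) came to exclude 1. Levels in siNTC per kb of unique windows were 3.93 for UGT2B10, 68.4 for UGT2B11, 60.2 for UGT2B15, 41.2 for UGT2B17 and 9.44 for UGT2B28, and by the longest transcript 33.7 for UGT2B11. Summing all 6 rows gave a log2 ratio of 0.26 for siEHMT1 over siNTC. In the stable lines Dox was compared with Veh within lines, and no block on the replicate number was fitted because the columns that carry it were summed. Where not stated, the cause was not tested. Depth limits UGT2B7 in all libraries and UGT2B10 in the stable lines.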
